A study of Glycine max with 4 samples.

Results

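The 8 soybean phytochrome genes were examined in RNA-seq libraries of 2 isolines, Clark standard and Clark five-foliate. They were taken by identifier from the first column of the deposited tables, and all 8 of the 8 identifiers were found among 69145 genes. They comprise 4 phytochrome A genes, 2 phytochrome B genes and 2 phytochrome E genes, and each was listed with 1 gene model. Isolines differ at a bred trait and are otherwise closely related. The standard line carries the wild-type genotype and the trifoliate leaf of soybean, and the five-foliate line is a mutant whose leaves bear more leaflets. Shoot tips and vegetative buds were harvested from several 4-week-old greenhouse plants of each line, and each of the 4 combinations of line and tissue is represented by 1 library. The 4 groups are therefore the standard shoot tip, the five-foliate shoot tip, the standard bud and the five-foliate bud, all of cultivar Clark and grown without a treatment beyond optimal greenhouse conditions. The files give no named tissue markers, so the tissue labels were not checked against expression.

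Phytochromes are red and far-red light receptors that switch between an inactive and an active form when they absorb light. In Arabidopsis, phytochrome A accumulates in the dark, is degraded in light and senses far-red light, whereas phytochrome B is light-stable and is the main receptor for shade avoidance and red light. Phytochrome E of Arabidopsis acts beside phytochrome B in the response to shade. In soybean, loss of the maturity genes E3 and E4, both of which encode phytochrome A, weakens the delay of flowering in long days.

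The genes form 4 pairs of duplicates, as many soybean genes do after whole-genome duplication. PHYA1 is Glyma10g28170 on chromosome 10 and PHYA2 is Glyma20g22160 on chromosome 20, the maturity gene E4. PHYA3 is Glyma19g41210 on chromosome 19, the maturity gene E3, and PHYA4 is Glyma03g38620 on chromosome 3. PHYB1 is Glyma09g03990 on chromosome 9 and PHYB2 is Glyma15g14980 on chromosome 15. PHYE1 is Glyma09g11600 on chromosome 9 and PHYE2 is Glyma15g23400 on chromosome 15, so the B pair and the E pair share their chromosomes. Names come from the list that chose the genes, since the files give identifiers alone, and chromosomes are those written in the identifiers. The RefSeq gene table of assembly Glycine_max_v4.0 lists none of the files' identifiers, so gene identity could not be checked by identifier. It holds 6 phytochrome or E4 symbols, each on the chromosome of the gene it was taken for, and its symbol PHYB was taken as PHYB1. No symbol there was taken for PHYA4 or PHYB2.

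Levels are RPKM as deposited, read numbers scaled by model length and library total. Library totals recovered from the values were 97532923 to 152791817, lowest in the standard bud and highest in the standard shoot tip. Each phytochrome value rested on 92 to 7297 reads, the fewest that gave whole numbers. Intervals are 95% intervals of these reads. They cover counting error only, and they compare libraries, not plants. With 1 library per group no level has a replicate error, and no p-value was computed within a tissue or within a line. Reads of near-identical copies may have been shared or split between the members of a pair, because the handling of reads with several matches is not given in the sources used here. In bulk tissue, fewer cells of a type and less RNA per cell cannot be told apart.

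PHYA1 and PHYA2 were abundant phytochrome transcripts, and both were highest in the standard shoot tip. PHYA1 had 11.5 RPKM in the standard shoot tip against 7.44 in its five-foliate counterpart, and 7.58 in the standard against 7.40 in the five-foliate bud. The standard shoot tip stood above the other libraries, whose exact Poisson intervals overlapped one another between 7.12 and 7.88 RPKM. PHYA2, the E4 gene, had 12.5, 8.66, 7.86 and 7.56 RPKM in the same order of libraries. Its standard shoot tip was again highest, its five-foliate shoot tip came next, and the intervals of the buds overlapped.

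PHYA3 and PHYA4 were more than 10 times lower than the other A pair in every library. PHYA3, the E3 gene, had 0.840 RPKM in the standard shoot tip against 0.514 in its five-foliate counterpart, and 0.489 in the standard against 0.245 in the five-foliate bud. The five-foliate bud was lowest, at 92 reads, and its interval of 0.197 to 0.300 RPKM lay below those of the other libraries. PHYA4 had 0.873, 0.669, 0.457 and 0.315 RPKM in the same order. It was highest in the standard shoot tip and lowest in the five-foliate bud, and the intervals of the buds touched at 0.383 RPKM. The summed level of PHYA1 and PHYA2 was 14.0 times that of PHYA3 and PHYA4 in the standard shoot tip and 13.6 times in the five-foliate one. It was 16.3 times that sum in the standard bud and 26.8 times in the mutant bud.

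The phytochrome B genes had more RPKM in the bud than in the shoot tip of both lines, where PHYA2, PHYA3 and PHYA4 had less. PHYB1 had 4.99 RPKM in the standard shoot tip against 6.32 in its five-foliate counterpart, and 9.91 in the standard against 8.90 in the five-foliate bud, and no intervals overlapped. PHYB2 had 3.41, 3.87, 7.45 and 7.17 RPKM in the same order, with overlapping intervals between the buds alone. In the deposited RPKM both copies were lowest in the standard shoot tip, the library in which the A genes were highest. With ratios centred on the median of all genes or with upper-quartile scaling, PHYB1 was nearly level between the shoot tips and PHYB2 was lower in the five-foliate one.

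The phytochrome E genes were low throughout. PHYE1 had 0.818 RPKM in the standard shoot tip against 0.925 in its five-foliate counterpart, and 1.08 in the standard against 1.10 in the five-foliate bud. PHYE2 had 0.350, 0.308, 0.422 and 0.397 RPKM in the same order. For PHYE1 the interval of each library overlapped that of the next in order of level, and all 4 intervals of PHYE2 overlapped. Model lengths of 1817 and 3634 bases both gave whole reads for PHYE1. The shortest fitting lengths of the other phytochrome genes were 3006 to 4033 bases, that of PHYE2 being 3327, so the longer one is nearer to theirs. The shorter one, with fewer reads, was used for its intervals, which does not change its RPKM. The longer one doubles the reads and narrows the intervals, and this changed 1 call, that of the five-foliate line between tissues.

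**Figure D1:**
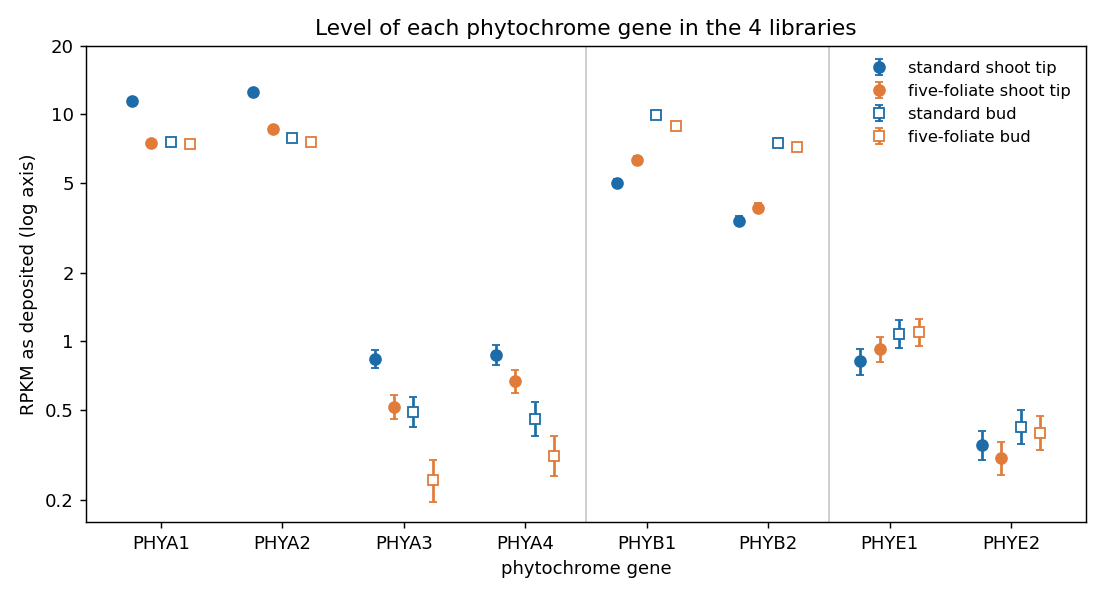
RPKM (log axis) of the 8 phytochrome genes in shoot tip (filled) and bud (open) of the standard (blue) and five-foliate (orange) line, with 1 point per library and bars for 95% exact Poisson intervals of the reads. PHYA1 and PHYA2 peak in the standard shoot tip at 11.5 and 12.5 RPKM, while PHYB1 and PHYB2 are highest in the standard bud at 9.91 and 7.45 RPKM.

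The order of the genes changed between tissues. In the standard shoot tip it ran from PHYA2 and PHYA1 to PHYB1 and PHYB2, with no overlap of neighbouring intervals among these 4 genes, and then to PHYA4, PHYA3 and PHYE1, which did not differ beyond counting error, and to PHYE2. In the five-foliate shoot tip the order was PHYA2, PHYA1, PHYB1, PHYB2, PHYE1, PHYA4, PHYA3 and PHYE2, and no neighbours overlapped. In both buds PHYB1 came first, and PHYA2, PHYA1 and PHYB2 followed with overlapping intervals. PHYE1 came next in both buds. Below it PHYA3, PHYA4 and PHYE2 overlapped in the standard bud. PHYE2, PHYA4 and PHYA3 followed it in the mutant bud, each overlapping the next. Among all 69145 genes, PHYA2 stood at percentile 90.5 in the standard shoot tip and 79.7 in the five-foliate bud, and PHYA3 at 49.5 and 32.5.

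The balance of A to B transcripts was set out within each library, where it does not depend on how the libraries were scaled. The A genes summed to 25.7 RPKM and the B genes to 8.39 in the standard shoot tip, a ratio of 3.06 (95% interval 2.96 to 3.16). The five-foliate shoot tip had sums of 17.3 and 10.2 RPKM and a ratio of 1.70 (1.64 to 1.75). In the standard bud they were 16.4 and 17.4 RPKM and the ratio 0.944 (0.911 to 0.978). The five-foliate bud had 15.5 and 16.1 RPKM and a ratio of 0.966 (0.932 to 1.00). A transcripts thus led in both shoot tips, and A and B transcripts were nearly level in both buds. The ratio was 1.80 times higher in the standard than in the five-foliate shoot tip (1.72 to 1.89). Between the buds the five-foliate ratio was 1.02 times the standard one (0.973 to 1.08), which did not differ beyond counting error. From shoot tip to bud the ratio was 3.24-fold lower in the standard line (3.09 to 3.40) and 1.76-fold lower in the five-foliate line (1.67 to 1.84).

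All 8 genes summed to 35.2 RPKM in the standard shoot tip and 28.7 in its five-foliate counterpart, and to 35.3 in the standard and 33.1 in the five-foliate bud. The A genes held 72.9% of this sum in the standard and 60.2% in the five-foliate shoot tip, and 46.5% and 46.9% in the buds. The B genes held 23.8%, 35.5%, 49.3% and 48.6% in the same order. The E genes held 3.31% to 4.52% in the 4 libraries.

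**Figure D2:**
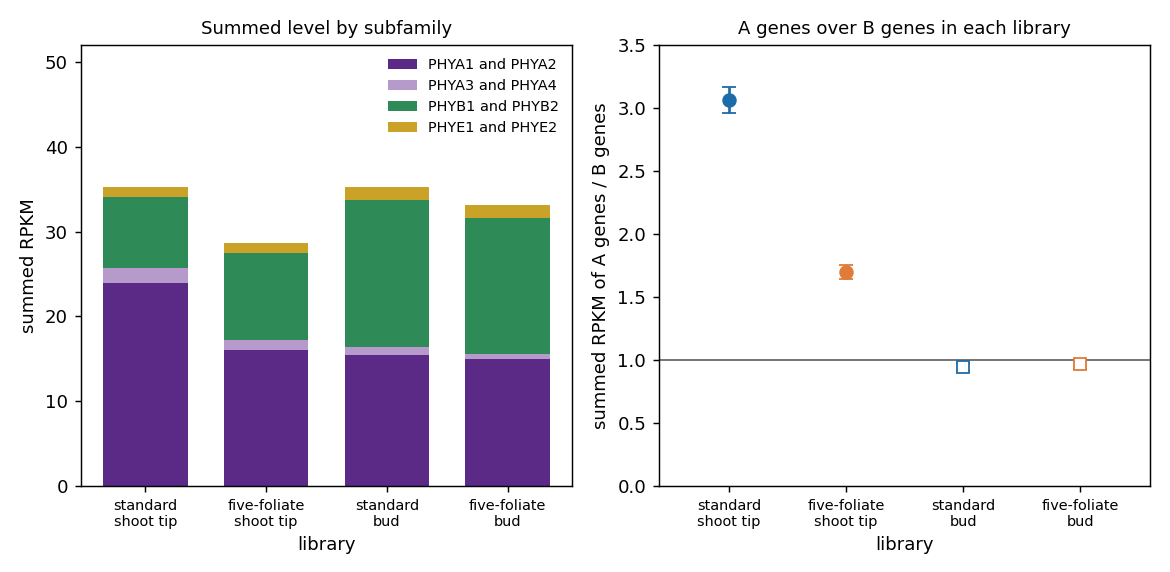
Left, RPKM summed by subfamily in each of the 4 libraries, stacked from 0. Right, the ratio of summed A to summed B RPKM in each library with 95% counting intervals, which lies at 3.06 and 1.70 in the standard and five-foliate shoot tips and at 0.944 and 0.966 in the buds.

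The first comparison asked how the lines differed in the shoot tip. All 4 A genes were lower in the mutant shoot tip, and their intervals did not reach a fold of 1. PHYA1 was 1.54-fold lower (1.48 to 1.61), PHYA2 1.44-fold lower (1.39 to 1.50), PHYA3 1.63-fold lower (1.40 to 1.91) and PHYA4 1.31-fold lower (1.12 to 1.53). The 4 A genes stayed lower with ratios centred on the median of all genes and with upper-quartile scaling. PHYB1 was 1.27-fold higher (1.21 to 1.33) and PHYB2 1.14-fold higher (1.07 to 1.21) in the mutant shoot tip in the deposited RPKM. With either of these scalings PHYB1 was nearly level and PHYB2 was lower. The intervals of PHYE1 and PHYE2 held a fold of 1.

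These differences stand against a large general difference between the shoot tip libraries. The median log2 ratio of the five-foliate to the standard shoot tip, taken as log2((RPKM + 1)/(RPKM + 1)), was 0.34 over 36537 genes that reached 1 RPKM in 1 or both of these libraries. The median was -0.11 for the 8 phytochrome genes and -0.17 for the 4 of them that passed the filter. At least a 2-fold difference on this scale was shown by 12.3% of these genes and by 0 of the 8 phytochrome genes, of which 4 passed the filter of 1 RPKM. The counting interval missed a fold of 1 in 86.9% of the genes passing the filter, and in 6 of the 8 phytochrome genes, so a difference beyond counting error was common between these libraries. PHYA1, PHYA2, PHYB1 and PHYB2, the phytochrome genes that passed the filter, were all among these 6. The log2 ratio of PHYA1 was -0.56 and stood at percentile 9.57 of the genes passing the filter, and that of PHYA2 was -0.48 and stood at percentile 10.9. PHYB1, at 0.29, stood at percentile 45.3, below the median gene.

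The same question in the bud gave smaller differences for PHYA1 and PHYA2. The five-foliate bud had 0.976 times the standard level of PHYA1 (0.924 to 1.03) and 0.963 times that of PHYA2 (0.915 to 1.01). Neither pair of values differed beyond counting error. PHYA3 was 2.00-fold lower in the five-foliate bud (1.54 to 2.60) and PHYA4 1.45-fold lower (1.11 to 1.90), so the low A pair was lower in the five-foliate library of both tissues, under each scaling tried. PHYB1 was 1.11-fold lower in the five-foliate bud (1.06 to 1.16), and the intervals of PHYB2, PHYE1 and PHYE2 held a fold of 1.

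In the bud, 0.916% of 38332 genes were at least 2-fold different and 0 of the 8 phytochrome genes were, of which 5 passed the filter. The difference of PHYA3 was just under 2-fold in RPKM. The gene also lay below the filter, and its log2 ratio was -0.26 with 1 RPKM added. The counting interval missed a fold of 1 in 41.8% of the genes passing the filter and in 3 of the 8 phytochrome genes. Of these 3, PHYB1 alone passed the filter. The median log2 ratio was -0.05 for the 8 phytochrome genes, also -0.05 for the 5 that passed, and -0.06 for all genes passing the filter.

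**Figure D3:**
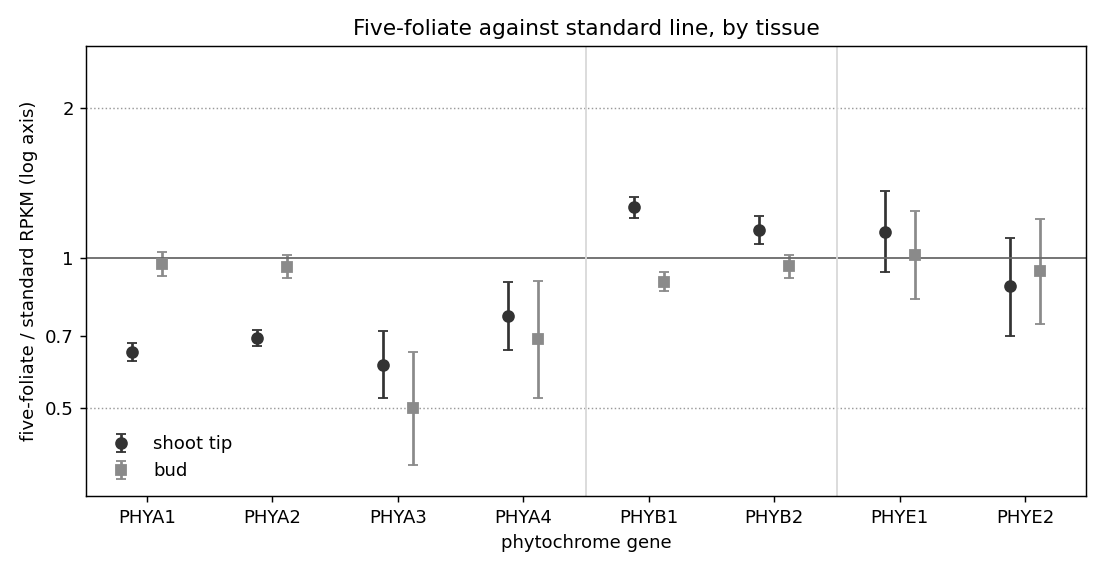
Five-foliate over standard RPKM (log axis) of the 8 phytochrome genes in shoot tip (circles) and bud (squares), with 95% exact binomial intervals of the reads and dotted lines at 2-fold. PHYA1 and PHYA2 lie at 0.648 and 0.693 in the shoot tip and near 1 in the bud, while PHYA3 and PHYA4 lie below 1 in both tissues. The shoot tip points of PHYB1 and PHYB2 lie above 1 as deposited. When ratios are centred or scaled by upper quartile, that of PHYB1 falls to near 1 and that of PHYB2 falls below 1.

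The next comparison set bud against shoot tip within each line. It uses the same 4 libraries, so the standard shoot tip enters both this comparison and the one between lines. The tissues stand in separate tables of the same unit. The column names of both shoot tips carry a label that those of the buds lack. Library totals were 152791817 and 139769051 in the standard and five-foliate shoot tips, against 97532923 and 103618555 in the buds. Tissue thus coincides with library set, and an effect of the set was not tested. In the standard line the A genes were lower in the bud, by 1.51-fold for PHYA1 (1.44 to 1.59), 1.59-fold for PHYA2 (1.52 to 1.66), 1.72-fold for PHYA3 (1.44 to 2.06) and 1.91-fold for PHYA4 (1.57 to 2.34). PHYB1 was 1.99-fold higher in the bud (1.90 to 2.08) and PHYB2 2.19-fold higher (2.06 to 2.32). Their log2 ratios with 1 RPKM added, 0.87 and 0.94, stood at percentiles 73.8 and 76.9 of the genes passing the filter. Centring on the median of all genes brought these ratios to 0.40 and 0.47. PHYE1 was 1.33-fold higher (1.09 to 1.61) in the deposited RPKM, lower in the bud with centred ratios and nearly level with upper-quartile scaling. The interval of PHYE2 held a fold of 1.

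In the five-foliate line PHYA1 did not differ between tissues beyond counting error, at 0.995 times the shoot tip level (0.945 to 1.05), and PHYA2 was 1.14-fold lower in the bud (1.09 to 1.20). PHYA3 was 2.10-fold lower (1.65 to 2.70) and PHYA4 2.13-fold lower (1.68 to 2.70). PHYB1 was 1.41-fold higher in the bud (1.35 to 1.48) and PHYB2 1.85-fold higher (1.74 to 1.97). PHYE2 was 1.29-fold higher (1.01 to 1.65), and PHYE1 was 1.19 times its shoot tip level, with an interval that held a fold of 1 at the shorter model length (0.981 to 1.44) and missed it at the longer one (1.04 to 1.36). Both lines thus had higher PHYB1 and PHYB2 and lower PHYA2, PHYA3 and PHYA4 in the bud library. These directions held with centred ratios and with upper-quartile scaling. The lines share the same library sets, so their agreement does not separate tissue from set.

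In the standard line 29.7% of 39343 genes were at least 2-fold different between tissues, and in the five-foliate line 17.9% of 39042 genes. The count for the 8 phytochrome genes was 0 in both lines, with 5 passing the filter. On the log2(RPKM + 1) scale PHYB2 reached 0.94 in the standard line, just under the threshold of 2-fold, against 2.19-fold in RPKM. PHYA3 and PHYA4 in the five-foliate line, at 2.10-fold and 2.13-fold in RPKM, had log2 ratios of -0.28 and -0.34 on this scale. A gene below 1 RPKM in both libraries cannot reach 2-fold on it, so for PHYA3, PHYA4 and PHYE2 the count of 0 was fixed by their levels. The counting interval missed a fold of 1 in 89.8% of genes in the standard line and 82.5% in the five-foliate line, and in 7 and 6 of the 8 phytochrome genes. The latter count is 7 with the longer PHYE1 model. Both counts include PHYA3 and PHYA4, and that of the five-foliate line includes PHYE2. These lay below the filter that the shares of all genes used. The median log2 ratio of bud to shoot tip over all genes passing the filter was 0.47 in the standard line and 0.07 in the five-foliate line, and that of the 8 phytochrome genes was -0.12 and 0.04. Over the 5 phytochrome genes that passed the filter it was 0.20 and 0.12, which are the ratios of PHYE1. PHYE1 reached 1 RPKM in the buds alone, so passing the filter fixed the sign of its ratio. In the standard line the sign of the median thus depends on whether the low genes are included, and it is no trend of the family.

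**Figure D4:**
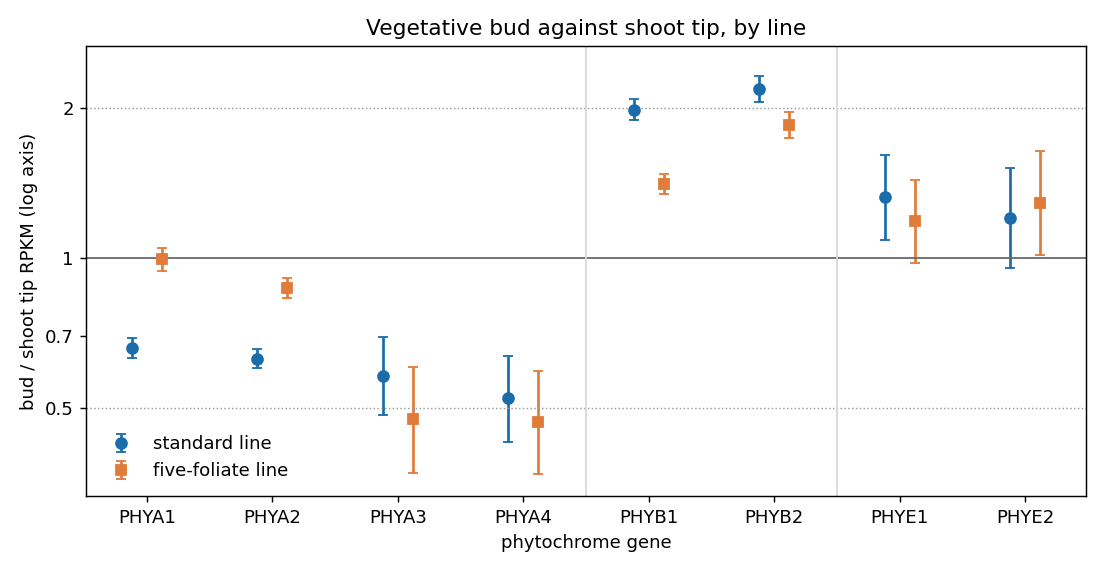
Bud over shoot tip RPKM (log axis) of the 8 phytochrome genes in the standard line (circles) and the five-foliate line (squares), with 95% exact binomial intervals of the reads and dotted lines at 2-fold. The B genes lie at 1.41 to 2.19 and PHYA3 and PHYA4 at 0.470 to 0.582 in both lines, while PHYA1 lies at 0.661 in the standard and 0.995 in the five-foliate line. The standard line point of PHYE1 falls below 1 when ratios are centred and to near 1 when they are scaled by upper quartile.

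A limma model with line and tissue as terms left 1 residual degree of freedom. It was fitted on log2(RPKM + 1) over the 40448 genes that reached 1 RPKM in 1 or more libraries, and 5 of the 8 phytochrome genes passed this filter. For line it called 0.504% of all genes (adjusted p under 0.05, Benjamini-Hochberg) and 0 of the 5 phytochrome genes, with 0 of 5 at an unadjusted p under 0.05. The fitted log2 ratio of five-foliate to standard was -0.30 for PHYA1, -0.27 for PHYA2, 0.07 for PHYB1, 0.05 for PHYB2 and 0.05 for PHYE1, each with a standard error of 0.375 and a limma adjusted p of 1. For tissue it called 21.3% of all genes and 0 of the 5 phytochrome genes, with 1 of 5 at an unadjusted p under 0.05. That gene was PHYB2, with a fitted log2 ratio of bud to shoot tip of 0.84 (limma adjusted p = 0.0942). With line left out, which left 2 residual degrees of freedom, PHYB2 was called for tissue (limma adjusted p = 0.0439), and its limma adjusted p ran from 0.0439 to 0.227 over the alternatives. PHYB1 had 0.65 (limma adjusted p = 0.224), and PHYA1, PHYA2 and PHYE1 had -0.27, -0.39 and 0.16 with limma adjusted p values of 0.673, 0.519 and 0.818. The residual of this fit is the departure from a line difference that is equal in both tissues. It is not a spread between plants, and the standard error was shared by all genes. A line difference that varies with tissue thus counts as error. The tissue term also holds any difference between the library sets. The fitted line ratio averages the tissues, which for PHYA1 had -0.56 in the shoot tip and -0.03 in the bud. The shares of all genes called were not stable. With centred values or upper-quartile scaling the limma count for line went from 204 genes to 0, and that for tissue from 8613 to 3137 and 3930. Without a filter both were 0. A p above the threshold does not show that the levels were equal.

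The copies of each pair were compared within libraries. PHYA1 had 0.919 times the level of PHYA2 in the standard shoot tip (0.888 to 0.951) and 0.859 times in the five-foliate shoot tip (0.822 to 0.898). In the standard and five-foliate buds the ratio was 0.965 (0.915 to 1.02) and 0.978 (0.928 to 1.03), so the copies did not differ there beyond counting error. PHYA3 and PHYA4 were level within counting error in the standard shoot tip at 0.962 (0.840 to 1.10), in the standard bud at 1.07 (0.848 to 1.35) and in its mutant counterpart at 0.777 (0.578 to 1.04). In the five-foliate shoot tip PHYA3 had 0.769 times the level of PHYA4 (0.647 to 0.914). The ratio in the five-foliate bud was alike but rested on fewer reads, a change by a factor of 1.01 (0.726 to 1.41). From the standard to the five-foliate shoot tip the ratio of PHYA1 to PHYA2 changed by a factor of 0.935 (0.885 to 0.989). That of PHYA3 to PHYA4 changed by 0.799 (0.645 to 0.991). From shoot tip to bud of the five-foliate line PHYA1 over PHYA2 changed by 1.14 (1.06 to 1.22). Intervals of the other changes of these pairs held 1.

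PHYB1 was above PHYB2 in every library. The ratio was 1.46 in the standard shoot tip (1.38 to 1.55) and 1.63 in its five-foliate counterpart (1.54 to 1.72). The standard bud had 1.33 (1.27 to 1.40) and the five-foliate bud 1.24 (1.18 to 1.31). From shoot tip to bud it changed by a factor of 0.909 in the standard line (0.842 to 0.981) and 0.762 in the five-foliate line (0.707 to 0.821), so PHYB2 gained on PHYB1 in the bud of both lines. PHYE1 was 2.34 to 3.01 times above PHYE2, and this ratio did not change between any of the compared libraries beyond counting error.

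**Figure D5:**
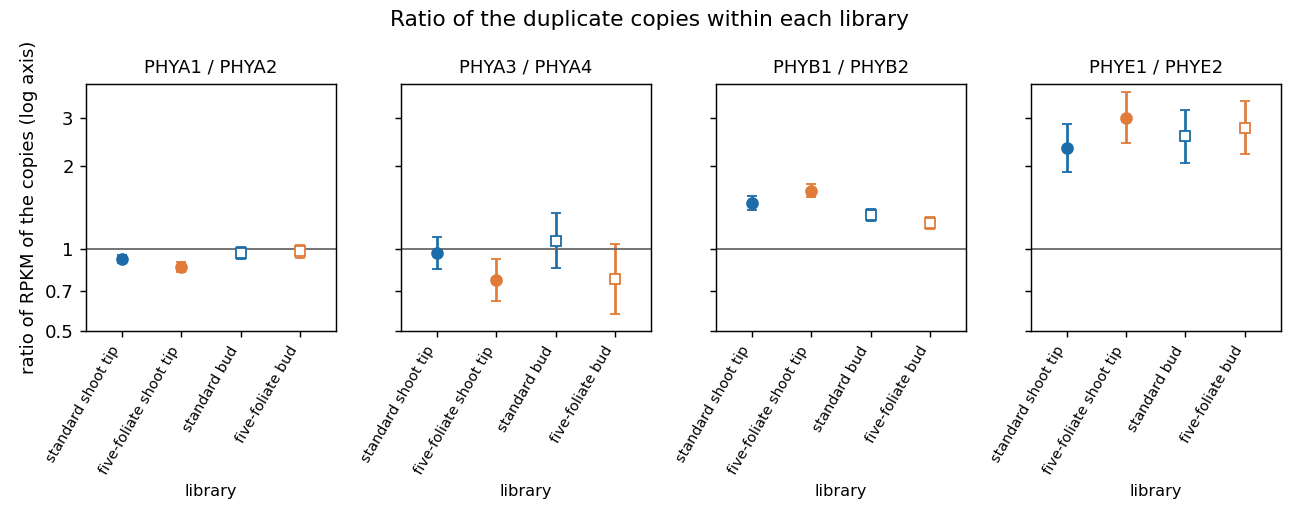
Ratio of the RPKM of the duplicates (log axis) within each of the 4 libraries for the 4 pairs, with 95% exact binomial intervals of the reads. The ratio stays between 0.859 and 0.978 for PHYA1 over PHYA2 and between 1.24 and 1.63 for PHYB1 over PHYB2, and PHYE1 exceeds PHYE2 by 2.34 to 3.01 times.

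Likeness of pattern was measured as the Euclidean distance between profiles of log2(RPKM + 1) over the 4 libraries, each centred on its own mean, among 37022 genes that were phytochromes or had a mean of at least 1 RPKM. With 4 libraries such a distance is a description only. The 1 RPKM added compresses changes of genes near or below 1 RPKM. Ranks of the PHYA3 and PHYA4 pair and of the E pair are therefore not like for like with those of the other pairs. PHYA2 ranked 89 in the list of PHYA1, and PHYA1 ranked 122 in that of PHYA2. PHYA4 ranked 75 in the list of PHYA3, and PHYA3 ranked 189 in that of PHYA4. For the E pair the ranks were 731 for PHYE2 in the list of PHYE1 and 457 in the reverse direction. For the B pair, PHYB2 was at rank 2960 in the list of PHYB1 and PHYB1 at rank 1571 in that of PHYB2. The gene nearest to E4 was Glyma06g04070, with 14.4 RPKM in the standard and 9.97 in the five-foliate shoot tip, and 9.06 and 8.81 RPKM in the buds. The gene nearest to E3 was Glyma11g07950, with 9.17, 7.21, 7.06 and 5.60 RPKM in the same order. Its changes were proportionally smaller than those of E3, which had 0.840, 0.514, 0.489 and 0.245 RPKM. Neither of these nearest genes is named in the files.

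Other genes of the photoperiod pathway were taken from a list of 14 identifiers, recalled from soybean work as the E1 gene with 2 relatives, 10 genes of the florigen family FT and 1 gene of the TFL1 family. E1 represses florigen genes in long days downstream of E3 and E4, and florigens are FT proteins that promote flowering. A member of the FT family need not be a florigen, and the role of each listed gene was not examined. Of the 14 identifiers 13 were in the tables, and 8 of these had no read in any library. The other was the one recalled for E1, so E1 was not analysed here. The highest level of any listed gene was 0.406 RPKM in the standard and 0.347 in the five-foliate shoot tip, and 1.77 and 1.16 RPKM in the buds. In the bud 2 of them passed the filter of 1 RPKM and 0 were 2-fold different between lines, against 0.916% of all genes, and in the shoot tip 0 passed. Between tissues 0 of 1 passing gene in the standard line was at least 2-fold different, against 29.7% of all genes. In the five-foliate line it was 1 of 2, higher in the bud, against 17.9% of all genes. No listed gene reached 1 RPKM in a shoot tip, so these genes passed through the bud alone and the filter fixed their direction. The list could not be checked, since its identifiers are not paired with names in the files or the RefSeq table, so no gene of this list is named singly.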

How the data were processed

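The authors deposited RPKM values for 78773 gene models, in 1 table per tissue and 1 column per library. Bowtie is named, without a version, in the submitters' processing notes. For the genome build, the annotation and multiply matching reads, nothing is given in the sources used here. The bud table also held 708957 empty rows, which were dropped. Each gene was represented by its model with the highest mean RPKM.

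Whole reads were recovered by searching for whole model lengths (20 to 20000) and library totals that made all values of a model whole within 0.0005 reads. This succeeded for 99.9904% of the 62593 models with 4 values above 0. If more than 1 length did so, the shortest was taken, which gives the widest intervals. Folds between libraries and ratios of copies have 95% exact binomial intervals, levels exact Poisson intervals, and ratios of sums and changes of ratios normal intervals on the log scale. Depth ran from 97532923 to 152791817 per library.

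Ratios across genes were log2 of RPKM + 1, a scale that compresses changes at low levels, and a gene entered where 1 of the libraries compared reached 1 RPKM. Genes were counted at 2-fold. The fit used limma 3.58.1 in R 4.3.3 with Benjamini-Hochberg adjustment, and both the search for reads and the fit were tested on simulated data. The simulation for the fit held no tissue difference and gave changed genes an equal line difference in both tissues. It therefore does not show how the fit behaves where a line difference varies with tissue. Python 3.11.15 served for the rest, with SciPy 1.17.1, pandas 2.3.3, numpy 2.4.6 and matplotlib 3.10.9.

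The genes and lists were chosen with earlier results of these data known. The rule for named genes took all 8 phytochromes and the gene nearest in pattern to E3 and to E4. Counts at 2-fold and limma counts were recomputed with a pseudocount of 0.1 or 5, without a filter or with one at 5 RPKM, after centring or upper-quartile scaling and with RPKM summed over models, the former also at 3-fold and the latter with the other factor left out. The log2 ratio of each gene was recomputed with the other pseudocounts, scalings and summed models, and ratios of copies with 1 RPKM added and summed models. Levels, sums, shares, percentiles, ranks of likeness, neighbours and the photoperiod list have 1 setting each. Ratios of A to B genes and the share of genes beyond counting error were added after the values had been seen, as were the longer PHYE1 model and the share of all genes at 2-fold under each setting.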

Additional observations from a re-analysis of the deposited data

Results flagged for a closer look

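PHYB1 and PHYB2 had genotype ratios of opposite sign in the tissues. On the log2(RPKM + 1) scale the five-foliate to standard ratio of PHYB1 was 0.29 in the shoot tip and -0.14 in the bud. That of PHYB2 was 0.15 in the shoot tip and -0.048 in the bud. With 1 library per group the difference between tissues was not tested. With centred ratios both shoot tip values were negative, at -0.051 and -0.19, and the bud values were -0.08 and 0.02. No group held the 4 samples that a search for outlying samples needs.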

How the results depend on the processing

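The counts of phytochrome genes at least 2-fold different were 0 in all 4 comparisons. They stayed 0 under every alternative run, except in the tissue comparison of the standard line. There a pseudocount of 0.1 gave 1 gene, PHYB2, higher in the bud at a log2 ratio of 1.11. Centred ratios gave 2, PHYA1 and PHYA2, both lower in the bud at -1.01 and -1.07. PHYA3, PHYA4 and PHYE2 lay below 1 RPKM in every library, and each alternative kept a filter or the 1 RPKM added. Their part of the count was thus fixed at 0 throughout and shows no stability. The limma count stayed 0 for line in every setting. For tissue it was 1, PHYB2, with no replicate block (line left out), and 0 otherwise, and the cause was not tested. Over all genes the limma count for line was 204, and 0 without a filter, centred, with upper-quartile scaling or with no replicate block, 1 with a pseudocount of 5 and 102 with the filter at 5 RPKM. That for tissue was 8613, and 0 without a filter, 3137 centred, 3930 with upper-quartile scaling, 5199 with a pseudocount of 5 and 5531 with the filter at 5 RPKM. Genes at 2-fold were 4497, 351, 11683 and 7003 in the shoot tip, bud, standard line and five-foliate line. They were 7759, 623, 16547 and 10579 with a pseudocount of 0.1 and 1544, 77, 4630 and 2566 with 5, and 1210, 129, 4851 and 2474 genes reached 3-fold. The filter at 5 RPKM left 163 in the bud. The share of these genes that was higher in the five-foliate shoot tip was 61.8%, against 27.0% centred and 33.9% with upper-quartile scaling, and that higher in the standard bud than in its shoot tip 69.7%, against 38.4% and 49.8%. With centred ratios the shoot tip genotype ratio was -0.051 for PHYB1 and -0.19 for PHYB2, and with upper-quartile scaling -0.0037 and -0.12, against positive values as deposited. The bud to shoot tip ratio of PHYE1 in the standard line was -0.27 centred and -0.0021 with upper-quartile scaling, against 0.20 as deposited. With the longer PHYE1 model 7 instead of 6 phytochrome genes lay beyond counting error between tissues of the five-foliate line, and the other 3 comparisons kept their counts. Each scaling shifts all ratios of a comparison together. Among the other single-gene ratios, 40 shifted by more than the half-width of the counting interval and 114 by less, and none whose interval missed a fold of 1 changed sign. Of the ratios of copies 6 moved and 26 did not, the former with 1 RPKM added. RPKM summed over models changed no phytochrome value, since each gene has 1 model. Leaving out a library would leave no comparison within its tissue or line. The numbers in the titles stand for tissues, so the limma fit with tissue as a term is the one that pairs the lines by number, and leaving the term out gives the fit with no replicate block. That fit kept the count for line at 0.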

Other observations

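The genes next to each phytochrome gene in identifier order were set beside it, 5 on each side that passed the filter in both tissues. PHYA3, PHYA4 and PHYE2 lay below 1 RPKM in every library, and PHYE1 did so in the shoot tips. The 1 RPKM added compresses ratios at such levels, so the places of these genes among their neighbours are not like for like. In the shoot tip PHYA1 and PHYA2 had log2 genotype ratios of -0.56 and -0.48, below all 10 neighbours of each, whose medians were 0.72 and 0.50 and whose lowest values were -0.43 and -0.47. PHYB2, at 0.15, was also below all 10 of its neighbours, whose median was 0.49. PHYA3 and PHYA4, at -0.28 and -0.17, each had 3 of 10 neighbours below them, with neighbour medians of 0.21 and 0.24. PHYB1, at 0.29, had 2 below it and a neighbour median of 0.48. PHYE1 had 4 below it, and PHYE2, at -0.046, had 7 and lay above its neighbour median of -0.10. In the bud PHYA3, at -0.26 on this scale but 2.00-fold lower in RPKM, had 2 of 10 neighbours below it, and the neighbour median was -0.08. PHYB1, at -0.14, had 1 below it. PHYA1, PHYA2 and PHYA4 had 4, 5 and 3 of 10 neighbours below them in the bud, and PHYB2, PHYE1 and PHYE2 had 8, 7 and 6.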
